A study of Mus musculus with 4 samples.

Results

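The dual-specificity MAP kinase phosphatases are enzymes that remove phosphate from both the threonine and the tyrosine that activate a MAP kinase. The 10 genes Dusp1, Dusp2, Dusp4, Dusp5, Dusp6, Dusp7, Dusp8, Dusp10, Dusp14 and Dusp16 were taken from a fixed list, out of 22180 genes with a probe set annotated with that gene symbol alone. Where a gene had several such probe sets, the one that was brightest on average over the 4 arrays was kept. The list was drawn up with earlier results of these arrays known, so the differences below are not independent evidence for the choice of genes.

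Affymetrix arrays were used to measure expression in dendritic cells, which present antigen to T cells, grown in culture from the bone marrow of C57BL/6 mice and harvested on day 7. One group was kept for 2 h with 0.3 µM sulforaphane in DMSO, and the control group for 2 h with DMSO alone, with 2 arrays per group. Sulforaphane is an isothiocyanate from cruciferous vegetables that modifies cysteines of KEAP1 and so activates the transcription factor NRF2. Lipopolysaccharide (LPS) at 100 ng/ml was then given to both groups for 1 h. It came from E. coli O111:B4 and is the ligand of TLR4. Cells without LPS were not analysed here, so no value below is a response to LPS itself. The labels do not say whether replicates came from separate mice or cultures, so the p-values cover no more than the spread among these 4 samples, possibly technical.

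TLR4 signals through the MAP kinases ERK, p38 and JNK, which drive the transcription and stabilise the mRNA of many cytokines in dendritic cells and macrophages. Most MAP kinase phosphatase genes are themselves induced by this signalling, and their products switch the kinases off again as negative feedback. The family is usually ordered by substrate and by place in the cell: DUSP5, DUSP6 and DUSP7 act mainly on ERK, DUSP8, DUSP10 and DUSP16 on p38 and JNK, and the nuclear DUSP1, DUSP2 and DUSP4 on more than one kind. DUSP14 is a small atypical member without the amino-terminal kinase-docking region.

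The deposited values were on a log2 scale, on which a difference of 1 is a doubling, and array medians lay between 3.24 and 3.27. The interquartile range of DMSO replicate 1 was 3.41, apart from the 3.61 to 3.62 of the other arrays. Differences are given as sulforaphane minus DMSO with moderated standard errors (SE) from limma, and the adjusted p is that over all 14652 genes tested (Benjamini-Hochberg, threshold 0.05). With 2 arrays a side, the smallest two-sided p of an exact permutation test is 0.333. The NRF2-responsive Osgin1 had 9.14 and 9.17 with sulforaphane, against 7.46 and 7.71 with DMSO. The interleukin subunit gene Il12b had 8.55 and 8.63 with sulforaphane, against 9.95 and 9.86 with DMSO. Osgin1 and Il12b ranked 7th and 9th by p among the 14652 genes. They were named with earlier results of these arrays known, so they are no independent check of the treatment. Of the markers of dendritic cells, Itgax stood at 11.33 in sulforaphane-treated cells and 11.26 in DMSO-treated cells, while Zbtb46 (5.98 with sulforaphane and 6.33 with DMSO) and Flt3 (4.51 and 4.93 in the same order) were dimmer. The neutrophil marker Ltf was at 11.18 with sulforaphane and 11.22 with DMSO, and the macrophage marker Csf1r at 11.21 and 11.25 in the same order. These 5 markers were named after their values were seen. They do not stand for their lists, which are given further below. All 8 macrophage and monocyte markers tested lay below 0 (median -0.20), and Csf1r (-0.033) was the nearest to 0. Of 8 neutrophil markers 6 lay above 0 (median 0.044), unlike Ltf (-0.039). Of 13 dendritic cell markers 8 lay below 0 (median -0.21), unlike Itgax (0.066). Fewer cells of a type and less RNA per cell cannot be told apart in such samples.

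Sulforaphane-treated cells had less mRNA of Dusp2, a nuclear phosphatase of ERK and p38 that is largely restricted to blood cells. In the main limma fit Dusp2 alone of the 10 genes fell past the threshold, where 0.0683% of all genes tested were called lower. Other settings with all 4 arrays put 0 to 3 of the 10 past the threshold, and 8 to 249 of all genes. Dusp16, a phosphatase of JNK and p38, and Dusp7, a cytoplasmic phosphatase of ERK, were lower in both sulforaphane arrays without passing it, and Dusp4, a nuclear phosphatase of several MAP kinases, was higher without passing it. The other 6 genes, Dusp1 among them, differed by at most 0.21 on the log2 scale in either direction. Dusp2, Dusp16 and Dusp7 belong to 3 different substrate classes.

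**Figure D1:**
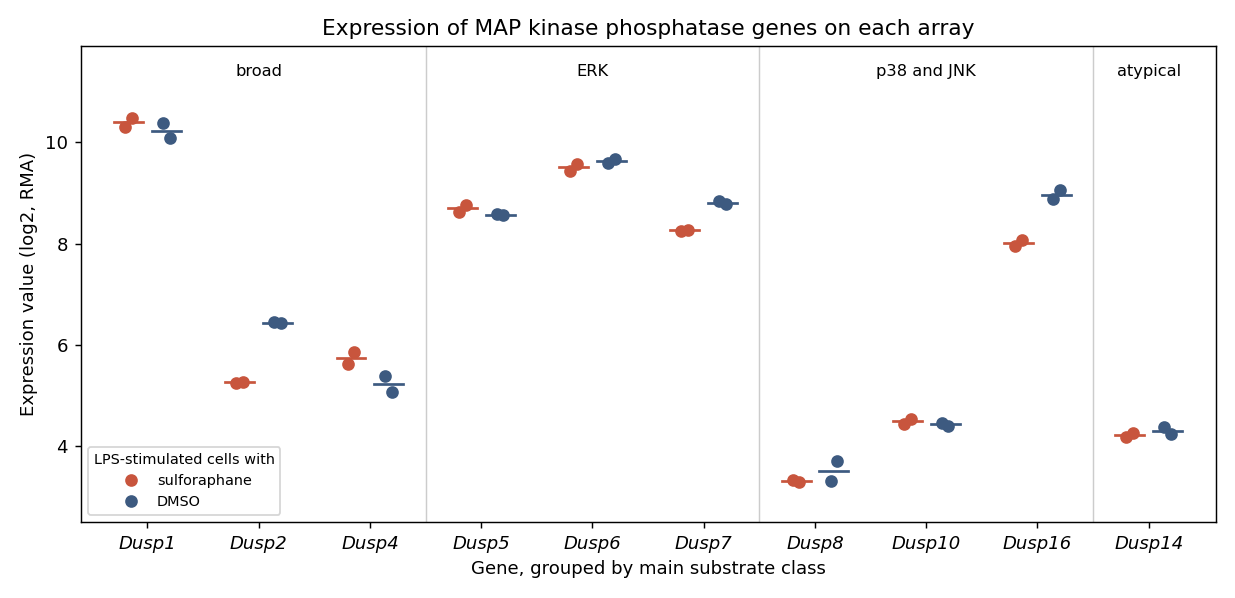
Expression value (log2, RMA) on each array for the 10 phosphatase genes, grouped by main substrate class; points are single arrays, lines the means of 2 arrays, with sulforaphane left of DMSO for each gene. Dusp2, Dusp7 and Dusp16 lie lower in both sulforaphane arrays, and Dusp4 higher, while heights of different genes come from different probes and are not comparable.

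Promoters of the 3 genes furthest below 0 (Dusp2, Dusp16 and Dusp7) and of the inducible Dusp1 and Dusp5, which differed little, are shown so that the short motifs often named for this family can be compared. Each is the 250 bases before the transcript start given in a RefSeq promoter table (GRCm38.p6), 5′ to 3′ on the gene's strand, and capitals mark a match to a searched motif. For Dusp2, Dusp1 and Dusp5 that start is the outermost annotated start of the gene. For Dusp16 it lies 14435 bases inside the gene's outer start and for Dusp7 72 bases inside, so the region before the outermost start was not searched for Dusp16 and only in part for Dusp7. In order, they lie at chr2:127335909-127336158 (plus strand), chr6:134792629-134792878 (minus strand), chr9:106368382-106368631 (plus strand), chr17:26508473-26508722 (minus strand) and chr19:53528895-53529144 (plus strand).
Dusp2: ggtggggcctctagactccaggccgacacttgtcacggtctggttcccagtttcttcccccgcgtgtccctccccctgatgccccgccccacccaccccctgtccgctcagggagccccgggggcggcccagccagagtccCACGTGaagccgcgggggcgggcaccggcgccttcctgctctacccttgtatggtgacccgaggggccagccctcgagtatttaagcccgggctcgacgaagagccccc
Dusp16: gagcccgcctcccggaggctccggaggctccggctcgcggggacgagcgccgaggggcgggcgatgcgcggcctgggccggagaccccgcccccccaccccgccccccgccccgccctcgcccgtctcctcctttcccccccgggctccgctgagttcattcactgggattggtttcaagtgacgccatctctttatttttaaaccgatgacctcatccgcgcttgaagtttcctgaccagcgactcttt
Dusp7: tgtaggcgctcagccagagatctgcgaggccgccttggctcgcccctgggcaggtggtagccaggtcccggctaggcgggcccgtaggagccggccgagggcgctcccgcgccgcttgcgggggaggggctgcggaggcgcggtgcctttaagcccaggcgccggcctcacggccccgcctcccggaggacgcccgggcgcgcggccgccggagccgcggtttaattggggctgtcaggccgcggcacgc
Dusp1: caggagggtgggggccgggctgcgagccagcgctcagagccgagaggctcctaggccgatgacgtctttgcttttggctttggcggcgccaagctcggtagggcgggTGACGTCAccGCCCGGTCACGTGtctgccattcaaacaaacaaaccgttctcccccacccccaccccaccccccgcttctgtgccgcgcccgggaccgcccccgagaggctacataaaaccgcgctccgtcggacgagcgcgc
Dusp5: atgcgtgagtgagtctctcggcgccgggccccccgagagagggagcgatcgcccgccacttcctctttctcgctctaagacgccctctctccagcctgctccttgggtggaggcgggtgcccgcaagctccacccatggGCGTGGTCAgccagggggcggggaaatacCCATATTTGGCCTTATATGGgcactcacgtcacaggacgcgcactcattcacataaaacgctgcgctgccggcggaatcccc

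The motifs were searched on both strands: the cAMP response element TGACGTCA, the AP-1 site TGANTCA, the core of the antioxidant response element bound by NRF2, TGACNNNGC, the E-box CACGTG, and the NF-kB site and the CArG box by their usual consensus. Windows for 9 of the 10 members were in the table, Dusp4 being the other. Dusp2 held a single E-box, from base -109 to base -104 before the start, a motif found in 6.02% of all 32851 windows of this length. The Dusp16 and Dusp7 windows, which start from inner transcript starts, held no match to any of the 6 motifs. Dusp1 held a cAMP response element from -143 to -136, found in 1.55% of windows, an antioxidant core from -133 to -125, found in 10.2%, and an E-box from -126 to -121 that overlaps it by 2 bases. Dusp5 held an antioxidant core from -111 to -103 and a pair of CArG boxes, which bind serum response factor, from -82 to -73 and from -72 to -63, a motif found in 1.47% of windows. The windows of Dusp6, Dusp10 and Dusp14 held no match, and that of Dusp8 held 2 cAMP response elements. The starts used for Dusp8 and Dusp14 lie 623 and 899 bases inside the outer starts of those genes. An AP-1 site (6.75% of windows) or an NF-kB site (1.19%) was in none of the 9. G and C made up 56.4% (Dusp6) to 77.2% (Dusp7) of the bases in the 9 windows, and 70.4% for Dusp2. The median over all 32851 windows was 52.4%, so the shares given do not come from windows of like composition. A match describes letters in this window and is not a measured binding site.

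Among the broad phosphatases, Dusp2 (Entrez 13537, GRCm38.p6 chromosome 2, 127336159 to 127338377) had values of 5.25 and 5.28 in sulforaphane-treated cells, against 6.44 and 6.43 in DMSO-treated cells. The groups were far apart and the replicates of each nearly equal, with SDs of 0.017 with sulforaphane and 0.0057 with DMSO (n = 2 each). The difference was -1.17 ± 0.10 SE (95% interval -1.43 to -0.92), 2.26-fold lower with sulforaphane, with an adjusted p of 0.0326 by limma. Dusp2 ranked 12th by p among the 14652 genes. With a block for the replicate number, the adjusted p of Dusp2 was 0.0596 by limma, and the call was lost. The 4 values from leaving out an array in turn lay between -1.19 and -1.16. Such a fit leaves 1 array in a group, so it cannot decide whether the call holds.

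Dusp2 is known as a lymphocyte gene, so the levels of lymphocyte markers are given here. Levels of different genes come from different probes and do not measure how many such cells were present. The T and NK cell markers Cd3e (2.93 in sulforaphane-treated cells and 3.15 in DMSO-treated cells) and Cd8b1 (3.14 and 3.03 in the same order) stood just above the filter at 2.91, and the other 4 of the 6 markers of that list with a probe set lay below the filter. The B cell marker Cd79a had 3.38 in sulforaphane-treated cells and 3.80 in DMSO-treated cells (-0.42, adjusted p = 0.328 by limma). Cd79b, the brightest B cell marker tested, had 4.17 in sulforaphane-treated cells and 4.27 in DMSO-treated cells. All 3 B cell markers tested lay below 0, against 45.8% of all genes. Their mean levels were 3.28 and 3.81 on the sulforaphane arrays, against 3.76 and 3.86 on the DMSO arrays. Their median difference was -0.27, but -0.0068 without sulforaphane replicate 1, when 1 of 3 lay above 0, and -0.53 without sulforaphane replicate 2. The part of these cells in the Dusp2 value was not tested.

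Dusp4 (Entrez 319520, chromosome 8, 34807610 to 34819894) lay on the other side, with 5.61 and 5.87 in sulforaphane-treated cells, against 5.38 and 5.07 in DMSO-treated cells. Its groups did not overlap, though the nearest arrays of the groups lay closer together (0.23) than the replicates of either group. The difference was 0.51 ± 0.16 SE (0.13 to 0.89), 1.43-fold higher, with an adjusted p of 0.261 by limma, so it did not pass. It was 0.36 without DMSO replicate 2 and 0.67 without DMSO replicate 1. The 95% intervals of Dusp2 and Dusp4 lie on opposite sides of 0, and the difference between the genes was not tested.

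Dusp1 (Entrez 19252, chromosome 17, 26505591 to 26508472), the early LPS-induced phosphatase that limits p38 and JNK in macrophages, had 10.30 and 10.48 in sulforaphane-treated cells, against 10.37 and 10.09 in DMSO-treated cells. It was the brightest of the 10 probe sets, and its groups overlapped. The difference was 0.16 ± 0.14 SE (-0.19 to 0.51), and it went down to 0.020 without DMSO replicate 2 and up to 0.30 without DMSO replicate 1. The interval leaves room for a 1.42-fold higher or a 1.14-fold lower level.

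Of the ERK phosphatases, Dusp7 (Entrez 235584, chromosome 9, 106368560 to 106375724) was the one with a clear gap between groups. It had 8.25 and 8.27 in sulforaphane-treated cells, against 8.85 and 8.77 in DMSO-treated cells. The replicates of each group lay within 0.075 of each other, well under the gap. The difference was -0.55 ± 0.11 SE (-0.81 to -0.29), 1.46-fold lower, with an adjusted p of 0.126 by limma, and it stayed between -0.59 and -0.51 with any array left out.

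Dusp6 (Entrez 67603, chromosome 10, 99263231 to 99267489), the cytoplasmic ERK phosphatase that is a standard readout of ERK activity, had 9.43 and 9.58 in sulforaphane-treated cells, against 9.58 and 9.66 in DMSO-treated cells. The higher sulforaphane array all but touched the lower DMSO array. The difference was -0.12 ± 0.12 SE (-0.40 to 0.16). A second Dusp6 probe set, at a mean of 2.67 under the filter, differed by -0.020. Dusp5 (Entrez 240672, chromosome 19, 53529145 to 53541809), the nuclear phosphatase restricted to ERK, had 8.63 and 8.77 in sulforaphane-treated cells, against 8.59 and 8.56 in DMSO-treated cells. Both sulforaphane arrays lay above both DMSO arrays, by a margin smaller than the gap between the sulforaphane arrays. The difference was 0.12 ± 0.11 SE (-0.15 to 0.40).

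Of the p38 and JNK phosphatases, Dusp16 (Entrez 70686, chromosome 6, 134715468 to 134807063) had 7.95 and 8.08 in sulforaphane-treated cells, against 8.87 and 9.06 in DMSO-treated cells. The groups did not overlap, and the gap was several times the spread within each. The difference was -0.95 ± 0.12 SE (-1.26 to -0.65), 1.94-fold lower, with an adjusted p of 0.0581 by limma, just over the threshold. By limma it passed with a stricter intensity filter (adjusted p = 0.0313), a second quantile normalization (0.0411) or centring of the genes tested (0.0154). It also passed with an intensity trend in the variance (0.00577), but not with the replicate block (0.0783). With an array left out the difference lay between -1.05 and -0.86.

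Dusp10 (Entrez 63953, chromosome 1, 184034381 to 184075636), a JNK and p38 phosphatase, had 4.45 and 4.53 in sulforaphane-treated cells, against 4.46 and 4.40 in DMSO-treated cells. Its groups overlapped, with a difference of 0.058 ± 0.11 SE (-0.21 to 0.32) that turned to -0.0046 when arrays were centred over the genes tested. Dusp8 (Entrez 18218, chromosome 7, 142079487 to 142095907), best known from brain and heart, had 3.32 and 3.29 in sulforaphane-treated cells, against 3.32 and 3.71 in DMSO-treated cells. That put it near the array medians, and only DMSO replicate 2 stood above the rest. The difference was -0.21 ± 0.15 SE (-0.58 to 0.16), and it shrank to -0.017 without DMSO replicate 2 and grew to -0.40 without DMSO replicate 1. The atypical Dusp14 (Entrez 56405, chromosome 11, 84048033 to 84069256) had 4.18 and 4.25 in sulforaphane-treated cells, against 4.37 and 4.23 in DMSO-treated cells, with overlapping groups and a difference of -0.087 ± 0.11 SE (-0.37 to 0.19).

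**Figure D2:**
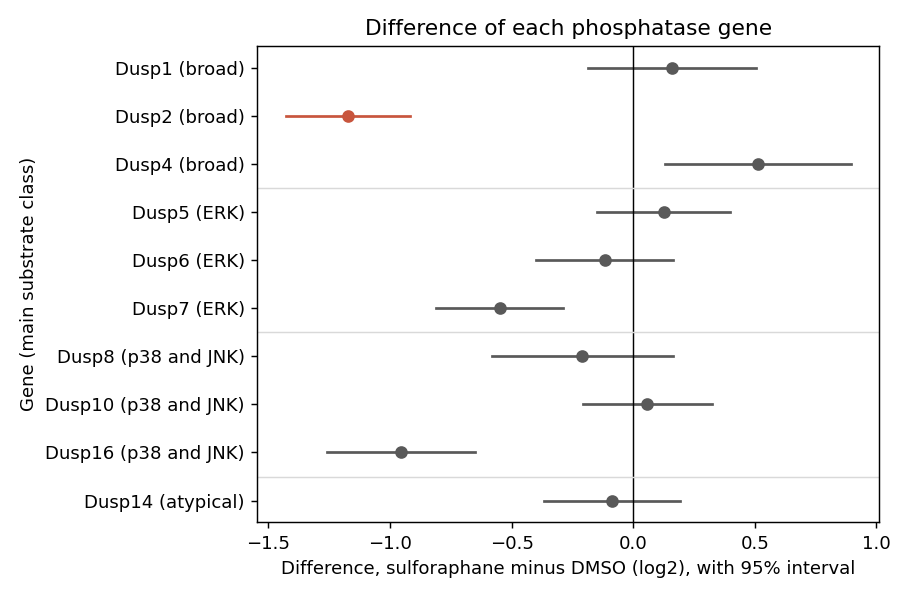
Difference between sulforaphane and DMSO (log2, horizontal axis) for each phosphatase gene, with its 95% interval from limma; the gene past the adjusted threshold is in red. The intervals of Dusp2, Dusp7 and Dusp16 lie below 0, that of Dusp4 above 0, and those of the other 6 genes span 0. Intervals are for single genes and not adjusted for the number tested. By limma 13% of all genes had an unadjusted p under 0.05.

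All 10 members passed the intensity filter, which used the mean over the 4 arrays and not the groups. Past the limma threshold 1 of 10 fell, where 0.0683% of all genes tested were called lower, and 0 rose, where 0.0614% were called higher (0.13% in all). Of the 10 members 4 had an unadjusted p under 0.05, against 13% of all genes. The groups did not overlap for 6 of 10 members, against 43.6% of all genes, 4 of them lower (19.5% of all genes) and 2 higher (24%). At least 1.5-fold without overlap, 2 of 10 members were lower, Dusp2 and Dusp16, against 1.49% of all genes, and 0 were higher, against 1.32% (2.81% in either direction). The median of the 10 differences was -0.10, and that of all genes 0.018. These counts describe genes picked with results known and were not tested.

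By substrate class, 1 of 3 broad phosphatases, 2 of 3 ERK phosphatases and 1 of 3 p38 and JNK phosphatases were lower without overlap (19.5% of all genes). In the same order 1, 1 and 0 were higher without overlap (24% of all genes). Among the ERK phosphatases, the groups of Dusp6, counted as lower, were apart by only 0.0013, and those of Dusp5, counted as higher, by 0.041. The class medians were 0.16 for the broad, -0.12 for the ERK and -0.21 for the p38 and JNK phosphatases. With 3 genes a class and differences as far apart within a class as Dusp2 and Dusp4, or Dusp16 and Dusp10, the ranges of the classes overlap. No difference between classes was tested. With an array left out, the difference lay between 0.056 and 0.19 for Dusp5, -0.19 and -0.043 for Dusp6, 0.014 and 0.10 for Dusp10, and -0.16 and -0.017 for Dusp14.

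**Figure D3:**
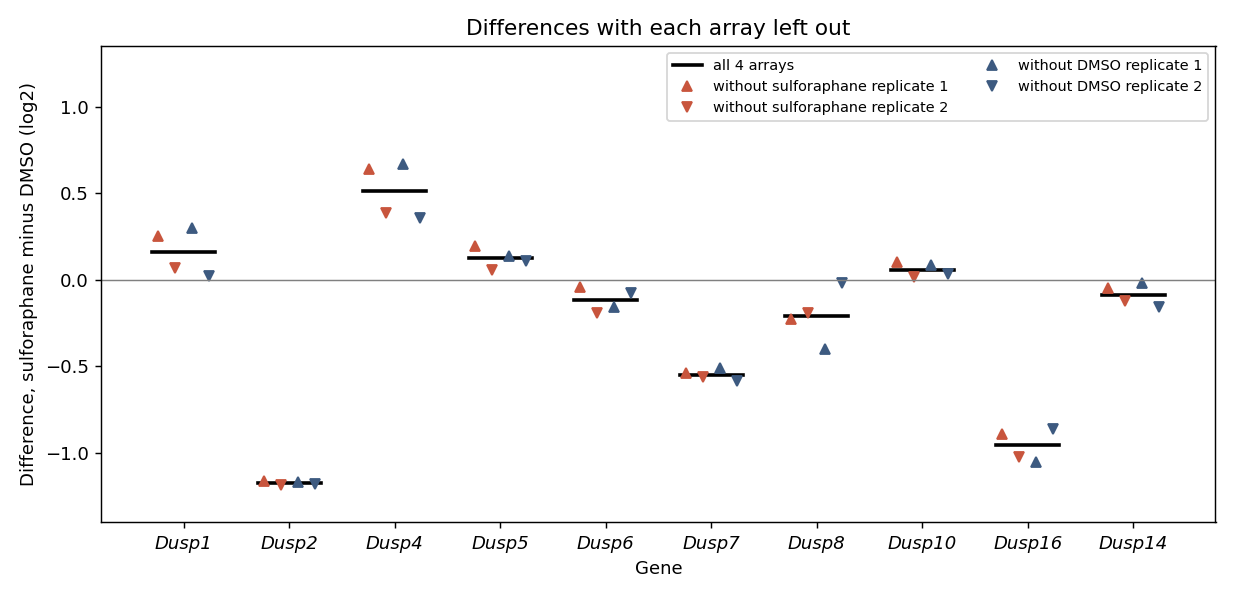
Difference between sulforaphane and DMSO (log2, vertical axis) for each gene with all 4 arrays (black line) and with each array left out (triangles). Dusp2, Dusp7 and Dusp16 stay at -0.51 or lower and Dusp4 at 0.36 or higher in each of the 4 cases, while each of the other 6 genes comes within 0.06 of 0 in at least 1 of them.

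The kinases that these phosphatases act on or answer to lay closer to 0. Of all genes tested, 54.2% lay above 0 and 45.8% below. Of 8 MAP kinases tested 5 lay above 0 and 3 below, with a median of 0.0054, and p38 alpha (Mapk14), named after its value was seen, differed by -0.013 ± 0.13 SE. Those of smallest p were the JNK genes Mapk8 (0.22 ± 0.15 SE) and Mapk9 (0.14 ± 0.16), the ERK5 gene Mapk7 (0.11 ± 0.12) and Mapk4 (-0.11 ± 0.14). Of 6 MAP2 kinases 5 lay above 0 (median 0.094), led by Map2k5, which activates ERK5 (0.25 ± 0.11), and Map2k3, an activator of p38 (0.28 ± 0.13).

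Of 12 MAP3 kinases 5 lay above 0 and 7 below (median -0.046), with the smallest p for Map3k14, the NF-kB-inducing kinase (0.30 ± 0.12), and Map3k11 (-0.27 ± 0.12). Of 7 kinases activated by MAP kinases 5 lay above 0 (median 0.047), and the p38-activated Mapkapk3 differed by -0.28 ± 0.10. None of these 33 kinase genes passed the limma threshold, where 0.13% of all genes did. Only 1 of them, Mapkapk3, had an unadjusted p under 0.05, against 13% of all genes. The medians of these lists turned sign with single arrays or another scaling. That of the MAP kinases was -0.030 without sulforaphane replicate 1 and -0.057 with arrays centred over the genes tested, and that of the MAP3 kinases 0.071 without DMSO replicate 2. That of the kinases activated by MAP kinases was -0.035 without DMSO replicate 1, -0.025 without sulforaphane replicate 1 and -0.016 with that centring, while that of the MAP2 kinases stayed above 0.

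Other feedback inhibitors of ERK signalling lay mostly below 0, 10 of 12 of them against 45.8% of all genes, with a median of -0.16, -0.11 without DMSO replicate 2. None passed the limma threshold, and 2 had an unadjusted p under 0.05, both lower, against 5.87% of all genes lower at that p. Spry1, a Sprouty inhibitor of receptor-driven ERK signalling, had 3.92 and 4.44 in sulforaphane-treated cells, against 5.35 and 5.42 in DMSO-treated cells. The groups did not overlap, and the difference was -1.21 ± 0.18 SE with an adjusted p of 0.0791 by limma. Spry1 passed with the filter at the 60th percentile (adjusted p = 0.0460), a second quantile normalization (0.0490), centring over the genes tested (0.0194) and an intensity trend (0.0289). Spred1, a membrane protein that recruits the RAS inhibitor neurofibromin, differed by -0.43 ± 0.10 (adjusted p = 0.188 by limma), and neurofibromin itself, Nf1, by -0.22 ± 0.11. The RAS GTPase-activating gene Rasa1 lay above 0, at 0.19 ± 0.11.

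Of 17 immediate early genes that answer to ERK 11 lay below 0 (median -0.18), against 45.8% of all genes. Past the limma threshold 0 rose, where 0.0614% of all genes were called higher, and 1 gene fell, where 0.0683% were called lower. That gene was Nr4a1, an orphan nuclear receptor, with 7.59 and 7.73 in sulforaphane-treated cells, against 9.05 and 9.21 in DMSO-treated cells, a difference of -1.47 ± 0.12 SE with an adjusted p of 0.0322. Myc (-1.01 ± 0.11) and Egr3 (-1.15 ± 0.13) lay just outside, both at an adjusted p of 0.0510 by limma, and Nr4a2 differed by -0.50 ± 0.12. These 4 had the smallest p of the list, and 7 of 17 had an unadjusted p under 0.05, all lower, against 5.87% of all genes. Myc and Egr3 passed beside Nr4a1 under the same 4 alternatives as Spry1 and with probe sets averaged per gene. Fits with an array left out leave 1 array in a group and cannot decide these calls. The median of the list was -0.093 without DMSO replicate 1 and -0.28 without DMSO replicate 2. Egr1 (0.33 ± 0.18) and Fos (0.30 ± 0.14), classical ERK targets named after their values were seen, lay above 0 and did not pass.

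The remaining phosphatases showed no call. Of all genes tested, 54.2% lay above 0, and 7.09% were higher with an unadjusted p under 0.05. Of 13 other dual-specificity phosphatases tested 8 lay above 0 (median 0.088, -0.0080 over the 18 with a probe set and no filter, 0.022 without sulforaphane replicate 2), and 2 had an unadjusted p under 0.05, Dusp13 (0.45 ± 0.16 SE) and the glycogen phosphatase laforin, Epm2a (0.33 ± 0.13). Dusp28 differed by 0.36 ± 0.15 and Dusp22, a JNK pathway phosphatase, by -0.27 ± 0.12. Dusp9, the ERK phosphatase closest to Dusp6 and Dusp7, was dim, at 3.80 in sulforaphane-treated cells and 3.84 in DMSO-treated cells, and was named after its value was seen. Of 8 other phosphatases of MAP kinases 5 lay above 0 (median 0.023, -0.039 with centring over the genes tested, -0.018 after a second quantile normalization and -0.0012 without sulforaphane replicate 1), and Ppm1d, the p53-induced phosphatase of p38, differed by 0.34 ± 0.12 with an unadjusted p under 0.05, the lone one of that list. The others of smallest p there were Ptprj (-0.18), Ptpn5 (0.18) and Ptpn7, which binds ERK and p38 in blood cells (-0.23).

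**Figure D4:**
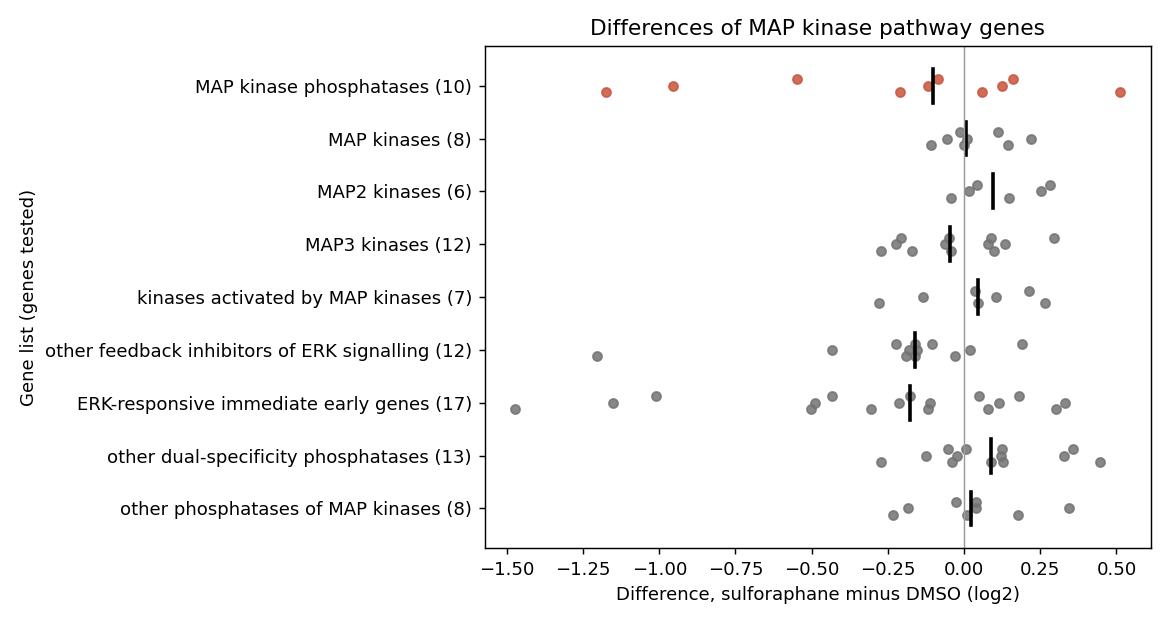
Difference between sulforaphane and DMSO (log2, horizontal axis) of each tested gene in the 10 phosphatases and in 8 other lists. These hold MAP kinase pathway genes and other phosphatases, not all of which act on MAP kinases. Each point is a gene and black lines are medians. The 10 phosphatases spread from -1.17 to 0.51, and the differences of the MAP kinases lie between -0.11 and 0.22.

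Several cell type markers were lower in sulforaphane-treated cells without passing the threshold. Of all genes tested, 45.8% lay below 0 and 54.2% above. Of 8 macrophage and monocyte markers tested all lay below 0 (median -0.20), with mean levels of 9.28 and 9.28 on the sulforaphane arrays, against 9.53 and 9.62 on the DMSO arrays. Of smallest p among them was Vcam1 (-0.78 ± 0.11 SE, adjusted p = 0.0600 by limma). Of 13 dendritic cell markers 8 lay below 0 (median -0.21, -0.046 with probe sets averaged per gene), with mean levels of 8.55 and 8.64 on the sulforaphane arrays, against 8.78 and 8.83 on the DMSO arrays. Irf4, a transcription factor gene of conventional dendritic cells, differed by -0.87 ± 0.11 SE (adjusted p = 0.0565 by limma), and Batf3 by -0.64 ± 0.13. The 5 dendritic cell markers above 0, named after their values were seen, were H2-Ab1 (0.26), H2-Aa (0.16), Cd86 (0.095), Ccr7 (0.092) and Itgax (0.066). Of 7 markers of mast cells and basophils 6 lay below 0 (median -0.070), at 6.84 and 6.96 with sulforaphane against 7.12 and 7.08 with DMSO, with the smallest p for Hdc (-0.61) and Gata2 (-0.57). Of 8 neutrophil markers 6 lay above 0 (median 0.044), at 9.42 and 9.28 with sulforaphane against 9.13 and 9.46 with DMSO, and these overlapped. The neutrophil median was -0.038 without DMSO replicate 1, when 1 of 8 lay above 0, and 0.21 without DMSO replicate 2, when 8 of 8 did, and -0.019 with arrays centred over the genes tested. No marker passed the limma threshold, and 12 of the 41 tested had an unadjusted p under 0.05, all lower, against 5.87% of all genes. Irf4 and Vcam1 passed under the 4 alternatives named for Spry1. The part of cell composition in the values of Dusp2, Dusp7 and Dusp16 was not tested.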

How the data were processed

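Per the labels' protocols, total RNA was converted to biotinylated cRNA for Affymetrix arrays. The authors deposited log2 expression values, and the submitters' processing notes name RMA and R 2.15.1. The base of the logarithm is inferred from RMA and from the size of the values, and every fold rests on it; the sources used here do not state the summarization level or any filter. RMA subtracts background, quantile-normalizes arrays and summarises probes, so values compare arrays and not different genes, and the 4 arrays limit the precision.

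Of 41345 probe sets, 25335 had a platform annotation and 23521 of these exactly 1 symbol. Each gene was read from its brightest such probe set, and the 14652 genes whose mean exceeded the 40th percentile of probe sets (2.91) were tested with limma 3.58.1 in R 4.3.3 (lmFit and eBayes, no block, 2 residual and 4.02 prior degrees of freedom, Benjamini-Hochberg threshold 0.05, intervals of 95%). On 5 simulated sets with those 14652 genes, the fit called 0.4% of genes changed 1.5-fold, 33.6% changed 2-fold and 81.2% changed 4-fold. It called 5 of 72260 unchanged genes. The simulated spreads were shuffled among genes, so they did not follow intensity. All 10 members were matched to RefSeq by Entrez identifier. Members and lists were chosen with earlier results of these data known. The text names all members, and of each other list the genes past the threshold and up to 4 others of smallest p, with other names marked. Alternatives were other filters, centring, a second quantile normalization, other uses of probe sets, a replicate block, an array left out and other variance moderation.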

Additional observations from a re-analysis of the deposited data

How the results depend on the processing

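The 4 arrays and the low power at small changes limit these calls, and the number of genes past the limma threshold over all genes moved widely with the setting. It was 19 (9 higher, 10 lower), and 138 with the filter at the 60th percentile, 93 after a second quantile normalization (30 higher, 63 lower), 143 with arrays centred over the genes tested (41 higher, 102 lower; added after seeing the data), 34 with probe sets averaged per gene, 249 with an intensity trend, 8 with the replicate block, and 0 with any array left out, when 1036 to 2850 genes had an unadjusted p under 0.05. The count at 1.5-fold without overlap, 412, was 520 to 798 with an array left out (798 without DMSO replicate 2), when the rule asks less, and its split of 194 higher and 218 lower became 142 and 283 with arrays centred over the genes tested. The number of the 10 phosphatases past the threshold was 1, and 2 with the filter at the 60th percentile, a second quantile normalization or centring over the genes tested (Dusp2 and Dusp16 each time), 3 with an intensity trend (Dusp7 too, adjusted p = 0.0255 by limma), 0 with the replicate block and 0 with any array left out, when 3 to 5 members had an unadjusted p under 0.05. The filter tests fewer genes, and an array left out leaves fewer degrees of freedom; the cause of the other shifts was not tested. Dusp2 differed by -1.17 under the replicate block with an adjusted p of 0.0596, and by -1.19 to -1.16 with an array left out. The replicate numbers share only a number: deviations of same-numbered arrays correlated at -0.081 across genes. The difference of Dusp10 turned to -0.0046 with arrays centred over the genes tested, and no other member changed sign under any alternative. Dusp8 was below the filter at the 60th percentile and has no value there.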
